A study of Mus musculus with 9 samples.

Results

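The genes described here are the fibroblast growth factors (FGFs), their receptors, and a set of binding, inhibitor and target genes of the same signal, measured in whole stomachs of newborn mice. Members were chosen by the gene name of the array design: the numbered Fgf and Fgfr genes, Fgfrl1, Fgfbp1, Spry1, Spry2, Spry4, Etv4, Etv5, Spred1 and Spred2. The rule found 35 genes on 57 probes, out of 34844 gene names on the array. For each gene the probe with the highest mean was taken, and 26 of the 35 were bright enough to be tested, out of 21610 genes tested in all.

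Stomachs came from 5 C/EBPβ KO mice (KO 1 to KO 5) and 4 wild-type mice (WT 1 to WT 4) killed at birth, with 1 mouse on each array. C/EBPβ, the product of Cebpb, is a DNA-binding protein with a leucine zipper. The labels give no strain, no description of the knockout allele and no sex. Total RNA treated with DNase I was copied from oligo dT primers, labelled with Cy3 and hybridised to Agilent 1-colour arrays. One label field describes the mice as old, but the sacrifice protocol and the design text both say newborn.

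FGFs are secreted ligands that bind receptor tyrosine kinases on neighbouring cells together with heparan sulfate. The activated receptor signals through the adaptor Frs2 and the Ras to ERK kinase cascade, and ERK switches on target genes such as Etv4, Etv5 and Dusp6 as well as the Sprouty (Spry) and Spred genes, whose proteins dampen the same cascade. In the developing foregut, Fgf10 made by mesenchyme acts on the epithelial form of the receptor Fgfr2 and is needed for growth of the gastric epithelium. A subset of the family, Fgf11 to Fgf14, is not secreted and instead binds voltage-gated sodium channels inside neurons and muscle cells.

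The results rest on 60-base probes, and for some members the probe itself matters to the reading. At most 30 bases of each are printed, 5′ to 3′, as the array files give them. The Fgf23 probe and the Spry2 probe are shown because they hold simple sequence, in capitals, namely the repeated unit CA in Fgf23 and an unbroken run of T and C in Spry2. The first line is the bright Fgf23 probe (chr6:127030758-127030817), the second the other Fgf23 probe (chr6:127031289-127031348), and the third the end of the single Spry2 probe (chr14:106291845-106291904), all in mm9 coordinates of the array design.
Fgf23, bright probe: cCACACACACACACACACACAtacatgtaa
Fgf23, other probe: tttagtgaaagcctccgctagcaggttgac
Spry2 probe: gagaggCTTTTCTTTCTCTTTTCCTTTTTT
Fgfr2 was read by 2 probes that overlap by 42 bases (chr7:137307473-137307532 and chr7:137307455-137307514), so they are not independent readings. Capitals mark the bases that both probes hold.
Fgfr2, brighter probe: atgccttatgaaccctgtCTGCCTCAGTAT
Fgfr2, other probe: CTGCCTCAGTATCCACACATAAACGGCAGT
Fgf10 had 1 probe (chr13:119580365-119580424), while the Fgf14 probe that differed most (chr14:124379079-124379138) lies beside another Fgf14 probe (chr14:124377957-124378016). The difference of that other probe had the opposite sign and was smaller than its standard error. The first bases of these Fgf10 and Fgf14 probes hold no repeat and are in lower case throughout.
Fgf10 probe: acagcaaatagtgcagacgttggattctta
Fgf14, probe used: taaacctgtgctatcatggatttctcttct
Fgf14, other probe: gctggagatgcaccttaaagatttcatgca

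The values are log2 signals relative to the array's 75th percentile of signal, called the level here, so a level of 0 is as bright as that percentile. The 75th percentile ran from 221 to 472 signal units, and KO 3, KO 4 and KO 5 had the highest, between 457 and 472. The share of spots well above background was 50.9% to 57.2% over the arrays, and the number of arrays limits the precision. The targeted gene Cebpb gave a signal of 39.0 to 159 on knockout arrays and 1774 to 5394 on wild-type arrays, so each array carried the Cebpb signal of its label. All 10 markers of glandular and all 10 of forestomach squamous epithelium were well above background on all 9 arrays. WT 4 stood apart: the summed squamous, mesenchymal, smooth muscle and skeletal muscle markers were lower than on the other wild-type arrays. The summed glandular, endothelial, liver, pancreas, intestinal and blood markers were higher there. The endothelial sum was carried by Kdr, at 5.18 on WT 4 against 3.42 to 4.08 on WT 1 to WT 3. The other endothelial markers, Pecam1, Cdh5, Tek and Tie1, were lower on WT 4 than on the other wild-type arrays. Single markers departed from other lists too, such as Trp63, which was highest on WT 4, and Ptprc and Cd68, which were lowest there among wild-type arrays. WT 4 was also the wild-type array farthest from the others for 19 of the 26 tested members (73.1%), against 58.1% of all genes. The Y-linked genes Ddx3y and Uty were both well above background on KO 1, KO 3 and all 4 wild-type arrays, and neither was on KO 2, KO 4 or KO 5, so Y-linked signal was unevenly spread over the genotypes. Another Y-linked gene, Eif2s3y, had a level of −3.37 on KO 2, against 1.62 to 2.26 on those 6 arrays. The sex-linked gene Xist had levels of 0.77, −0.78 and −0.16 on KO 2, KO 4 and KO 5, and −5.91 or lower on the same 6 arrays. Arrays of 4 slides were used, and slides 1 (KO 4, KO 5, WT 3, WT 4) and 4 (KO 2, WT 1, WT 2) held both genotypes.

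The question was whether FGF genes differ between knockout and wild-type stomach. Fgf10, Spry2 and Spred1 gave higher values in the knockout and Fgf14 a lower one, each at an unadjusted limma p below 0.05, but 0 of the 26 tested members passed the threshold of an adjusted p below 0.05. Over all 21610 genes 0.204% passed it. The smallest adjusted p among members was 0.262, for Fgf14 (limma, Benjamini-Hochberg over all genes). The 4 members at an unadjusted p below 0.05 make 15.4% of those tested, against 8.73% of all genes. Of these, 3 were higher (5.06% of all genes) and 1 lower (3.67% of all genes). Fgf10, Spry2 and Fgf14 each passed the filter, at least 4 arrays well above background, only through the genotype with the higher values. The 15.4% rests in part on that filter. With detection required on all 9 arrays, 1 of 20 tested members, Spred1, had such a p, against 9.02% of all genes. In 3 members (11.5%) the 5 knockout values all lay on one side of the 4 wild-type values, against 3.39% of all genes. Of the 26, 16 had a higher mean in the knockout (61.5%, against 50.9% of all genes), and the median difference was 0.15 on the log2 scale, against 0.01 over all genes. The count at an unadjusted p below 0.05 was 2 without KO 3 (6.46% of all genes) and 8 without WT 4 (16.2% of all genes). In whole tissue, fewer cells of a type and less RNA per cell cannot be told apart.

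**Figure D1:**
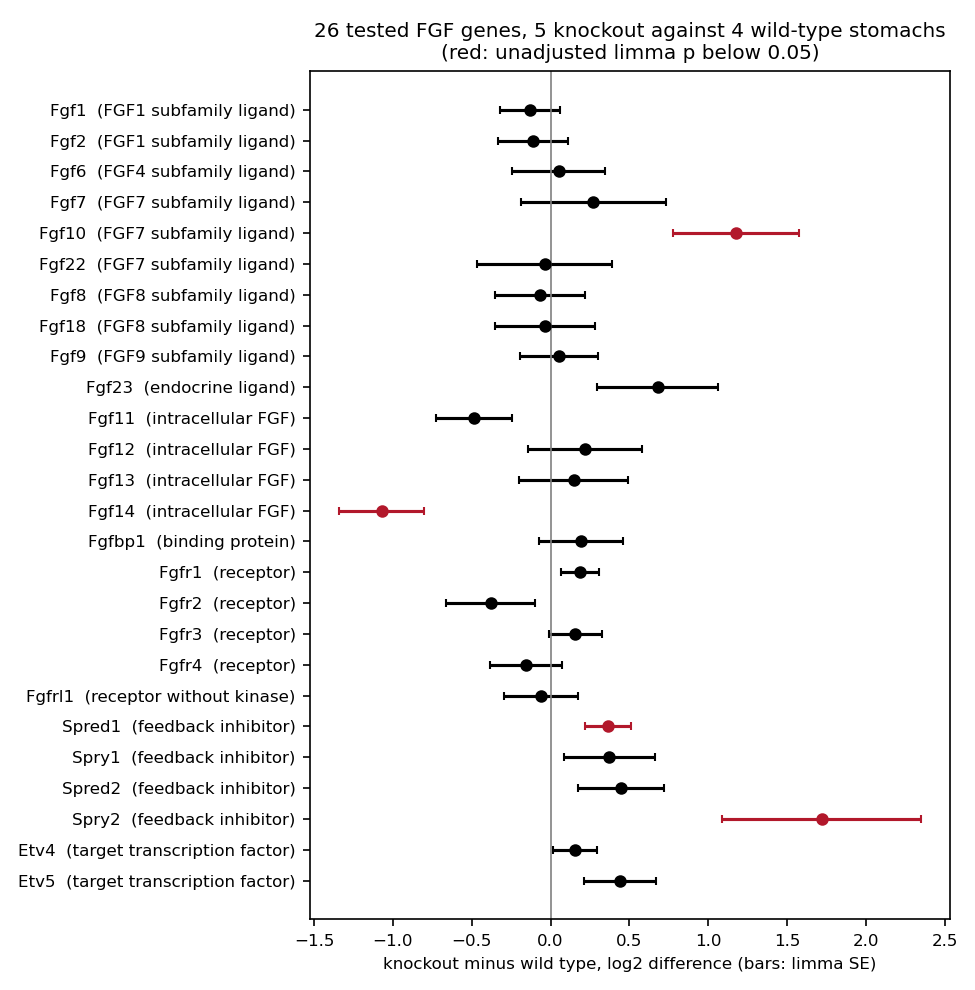
Knockout minus wild-type difference of each of the 26 tested FGF genes on the log2 scale (x axis), ordered by role, with limma's standard error as bars and the genes at an unadjusted p below 0.05 in red. Spry2 at 1.72 and Fgf10 at 1.18 lie farthest to the right, Fgf14 at −1.07 farthest to the left, and all 4 tested Sprouty and Spred genes lie to the right of 0.

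Among the ligands of the FGF7 subfamily, Fgf10 gave the largest difference between the genotypes. Its level was −3.37, −3.53, −2.49, −1.57 and −1.75 on KO 1 through KO 5, and −3.63, −3.72, −3.73 and −3.79 on WT 1 to WT 4. The 3 arrays KO 3, KO 4 and KO 5 were high, KO 1 and KO 2 lay just above the wild-type arrays, and the groups did not overlap. The difference was 1.18 ± 0.40 (SE), with a limma p of 0.0148, an adjusted p of 0.432 and an exact two-sided permutation p of 0.0556 over the 126 splits of the arrays. That permutation test cannot go below 0.00794.

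Fgf10 was read by 10 spots on every array, of which 8 to 10 carried no outlier flag and were used, which gives its array values a technical error of their own. The SD over the spots was between 0.08 and 0.41, and the spots of KO 3, KO 4 and KO 5 (lowest −2.71) lay wholly above those of the other arrays (highest −3.05). On WT 3 and WT 4, 3 of the 10 spots were well above background, so the gene was near the detection limit there. The probe counted as well above background on all 5 knockout arrays and on 2 wild-type arrays, so it passed the filter of 4 arrays through the knockout. Within slide 1 the knockout minus wild-type difference was 2.10, and within slide 4 it was 0.15. With slide as a block it was 1.32 (limma adjusted p = 0.597), and after normexp background correction it was 0.40 (adjusted p = 0.609), the lowest of all settings tried. The groups overlapped after normexp and after quantile normalization.

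**Figure D2:**
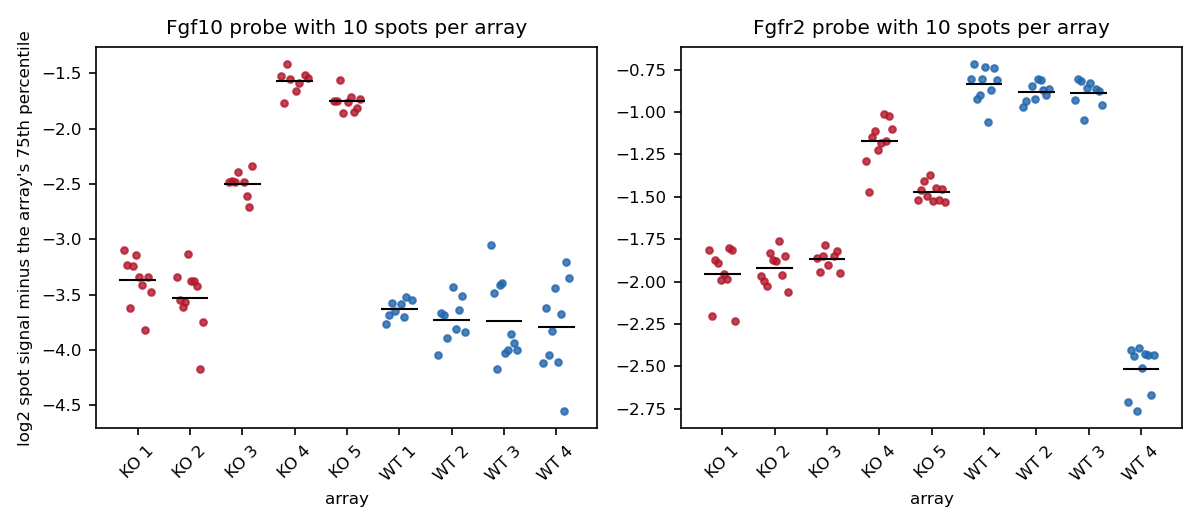
Single spot levels (log2 signal minus the array's 75th percentile, y axis) of the Fgf10 probe and of the Fgfr2 probe that have 10 spots per array, for each array (x axis), with knockout in red, wild type in blue and the mean as a black line. Fgf10 spots are high on KO 3 to KO 5, while Fgfr2 spots are highest on WT 1 to WT 3 and lowest on WT 4.

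The summed intestinal markers and the summed markers of enteric neurons and glia were high on the same 3 arrays. The 6 intestinal markers on the array had a summed level of 3.99 to 4.12 on KO 3, KO 4 and KO 5, against 2.50 to 3.59 on the other arrays, and 3 of the 6 were well above background on all 9 arrays. Cdx2, which marks intestinal epithelium, had a level of −5.25, −4.34 and −2.86 on KO 3, KO 4 and KO 5, and −6.15 or lower elsewhere. It was well above background on 1 array. The detected markers differed among the 3 arrays. Lct, at 3.19, was highest on KO 3, whereas Fabp2 was highest on KO 4 and KO 5 (3.23 and 3.01) and lay at 1.30 on KO 3, below KO 1, KO 2 and WT 4. The 8 markers of enteric neurons and glia, all well above background on all 9 arrays, summed to 3.41 to 3.66 on those 3 arrays and to 2.50 to 3.16 on the others. The part of these tissues in the Fgf10 values was not tested.

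Fgf7, a growth factor that mesenchyme supplies to epithelium, had a difference of 0.27 ± 0.46 (limma adjusted p = 0.940). It lay between −1.81 and −0.97 on the knockout arrays and between −1.19 and −0.71 on WT 1 to WT 3, but at −3.25 on WT 4. Fgf22, of the same subfamily, lay at −0.04 ± 0.43, with KO 5 at −3.14 far below the other knockout arrays (−1.29 to −0.94). Fgf3 was well above background on 0 of the 9 arrays.

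Of the remaining secreted ligands, Fgf1 had −0.13 ± 0.19 and Fgf2 −0.11 ± 0.22 (limma adjusted p = 0.924 and 0.949). The other Fgf1 probe gave −0.83 ± 0.52, and the mean over both Fgf1 probes was −0.48. The Fgf2 probe used was well above background on 3 knockout and 2 wild-type arrays, and the other Fgf2 probe on 0 of the 9 arrays. Fgf9, which signals from epithelium to mesenchyme in several organs, had 0.05 ± 0.25, and its 95% interval of −0.50 to 0.61 covers changes in either direction. Fgf18 had −0.04 ± 0.32. Its 2 probes overlap by 26 bases and had opposite signs, −0.04 and 0.14, both within the standard error. Fgf15, the ileal hormone that reports bile acids to the liver, Fgf4, Fgf5, Fgf17, Fgf20 and the liver hormone Fgf21 were well above background on 0 of the 9 arrays. Fgf16 was well above background on 1 array (KO 5).

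Fgf6, Fgf8 and Fgf23 were each detected by a single probe, whereas their other probes were well above background on 0 of the 9 arrays. Fgf6 is known from skeletal muscle, Fgf8 from early embryonic organisers and Fgf23 as a bone hormone that controls phosphate. The differences were 0.05 ± 0.30 for Fgf6, −0.07 ± 0.29 for Fgf8 and 0.68 ± 0.38 for Fgf23 (limma adjusted p = 0.690 for Fgf23). Which transcripts these bright probes read was not tested for Fgf6 and Fgf8.

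For Fgf23 the array offers a comparison, since 21 other probes hold the same run of 10 CA units that is printed above. All 21 were well above background on all 9 arrays, as were 44.2% of all probes. The Fgf23 level minus its wild-type mean was 1.32, 1.06, 0.66, 0.13 and 0.24 on KO 1 through KO 5, and −0.95, 0.28, −0.26 and 0.93 on WT 1 to WT 4. The median of the 21 other probes, treated likewise, was 1.40, 1.06, 0.56, −0.10 and 0.09 on KO 1 through KO 5, and −0.96, 0.23, −0.35 and 1.07 on WT 1 to WT 4. The Fgf23 probe and the repeat probes were high and low on the same arrays. All 21 had a higher mean in the knockout, with a median difference of 0.59. Whether the bright probe read Fgf23 RNA or RNA of other genes with the repeat was not tested.

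**Figure D3:**
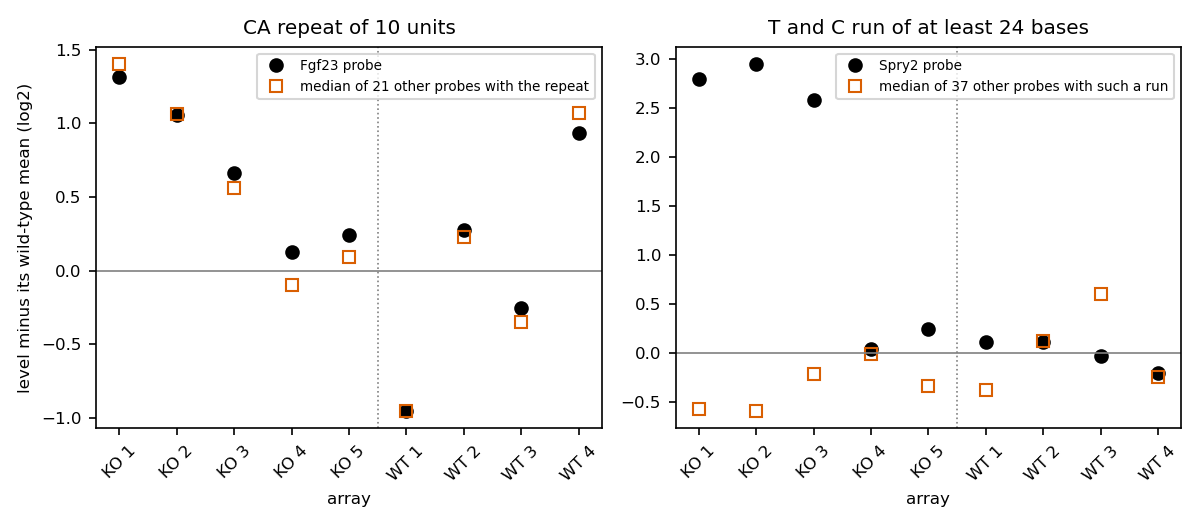
Level minus its wild-type mean (log2, y axis) on each array (x axis) for the Fgf23 probe beside the median of the 21 other probes with the CA repeat (left), and for the Spry2 probe beside the median of the 37 other probes with a T and C run of at least 24 bases (right). The Fgf23 points follow the open squares on all 9 arrays, whereas the Spry2 points of KO 1 to KO 3, between 2.58 and 2.94, lie far from theirs.

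Of the intracellular members, Fgf14 was lower in the knockout. Its level was −3.74, −4.76, −3.84, −4.33 and −3.43 on KO 1 through KO 5, and −3.15, −2.84, −3.16 and −2.64 on WT 1 to WT 4. Every knockout array lay below every wild-type array. The difference was −1.07 ± 0.27 (SE), with a limma p of 0.00251, an adjusted p of 0.262 and an exact permutation p of 0.0159. It was −0.98 within slide 1 and −1.76 within slide 4.

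The other Fgf14 probe that passed the filter did not follow, but it was well above background on 3 knockout and 2 wild-type arrays only. On KO 1, KO 2, WT 3 and WT 4 it lay below the lowest level well above background there (−4.59, −4.02, −3.97 and −3.89). This probe had levels of −4.65, −5.73, −4.20, −3.91 and −4.05 on KO 1 through KO 5, and −4.67, −4.66, −5.82 and −4.22 on WT 1 to WT 4. Its difference, 0.33 ± 0.42, was smaller than its standard error. The last of the 3 Fgf14 probes was well above background on 0 of the 9 arrays. Averaged over the 2 detected probes, the Fgf14 difference was −0.37 (limma adjusted p = 0.830). The probe used was well above background on 3 of 5 knockout arrays and on all 4 wild-type arrays, so it passed the filter through the wild type. After normexp background correction the difference was −0.51 (adjusted p = 0.386) and the groups overlapped.

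Fgf11 had −0.49 ± 0.24 (limma adjusted p = 0.618), with WT 3 at −2.76 above the other arrays (−4.21 to −3.53). Fgf12 had 0.22 ± 0.36 and was lowest on WT 4 at −5.14. Fgf13 was read by 2 probes in separate parts of the gene on chromosome X. The brighter one gave 0.15 ± 0.35, and the other, designed on a different transcript, gave 0.49 ± 0.18 (limma adjusted p = 0.515 over all probes).

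Fgfr2 is, in its epithelial form, the receptor for the FGF7 subfamily. The probes were not assigned to exons, so which form of Fgfr2 they read was not tested. The Fgfr2 level was −0.38, −0.43, −0.52, 0.09 and −0.13 on KO 1 through KO 5, and 0.43, 0.38, 0.46 and −0.84 on WT 1 to WT 4. WT 1 to WT 3 lay above all knockout arrays, whereas WT 4 lay below them. The difference over all arrays was −0.38 ± 0.28 (limma p = 0.203, adjusted p = 0.786, exact permutation p = 0.254). Its 95% interval ran from −1.01 to 0.24. Without WT 4 the difference was −0.70 (limma adjusted p = 0.103).

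The overlapping Fgfr2 probe, with 10 spots per array, also placed WT 1, WT 2 and WT 3 highest (−0.84, −0.88 and −0.89) and WT 4 lowest (−2.52). The SD over its spots was at most 0.15, which is the technical error of 1 array and not the spread between mice. On WT 4 the squamous markers summed to 8.99, against 10.16 to 10.56 on the other wild-type arrays, and the mesenchymal markers to 7.52, against 8.27 to 8.73. The glandular markers went the other way and summed to 10.89 on WT 4, against 10.13 to 10.43. The part of tissue in the WT 4 value of Fgfr2 was not tested. Within slide 1, which holds WT 4, the Fgfr2 difference was 0.17, and within slide 4 it was −0.83.

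**Figure D4:**
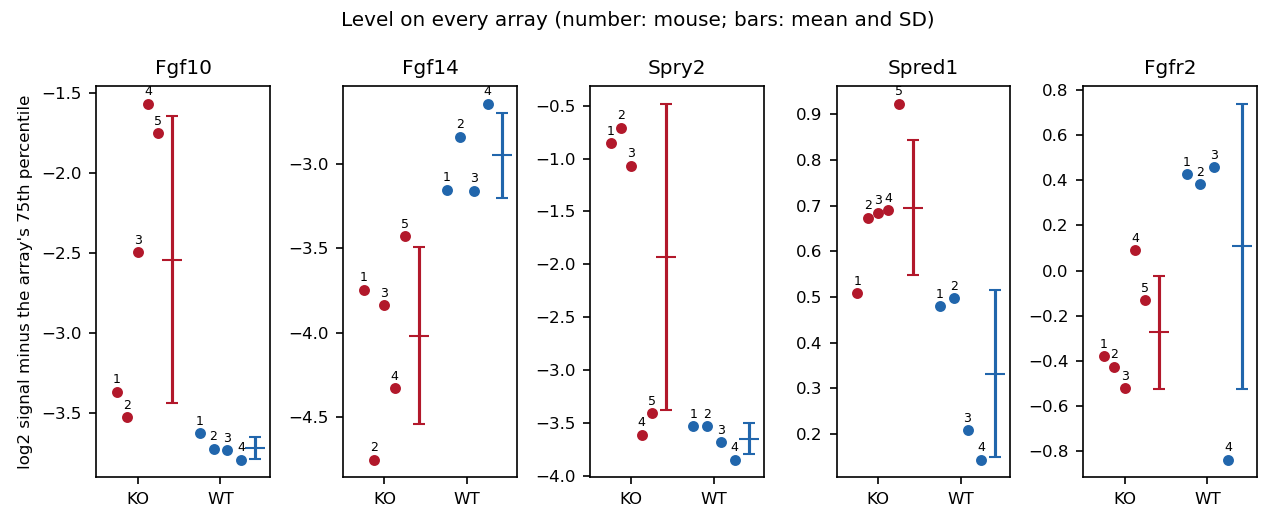
Level (log2 signal minus the array's 75th percentile, y axis, scaled for each gene) of Fgf10, Fgf14, Spry2, Spred1 and Fgfr2 on each array, with the mouse number beside each point, knockout in red, wild type in blue, and the group mean with its SD to the right of the points. Spry2 splits the knockout arrays into KO 1 to KO 3 and KO 4 and KO 5, and WT 4 stands below the other wild-type points for Fgfr2.

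By the probes used, the differences of the other receptors lay between −0.16 and 0.19. Fgfr1, the main mesenchymal receptor, had 0.19 ± 0.12 (limma adjusted p = 0.753, 95% interval −0.09 to 0.46), with levels of 3.40 to 3.61 in the knockout and 3.26 to 3.41 in wild type. Its other probes gave 0.16 ± 0.29 and −0.15 ± 0.42. Fgfr3 had 0.16 ± 0.17 by its brightest probe and −0.34 ± 0.35 by the next, and the remaining probe was well above background on 0 of the 9 arrays. Fgfr4 had −0.16 ± 0.23, and its second probe gave −0.17 ± 0.30. WT 4 was low by some of these other probes too. It lay at −1.90 by the Fgfr1 probe with −0.15, against −0.28 to −0.03 on WT 1 to WT 3. By the next Fgfr3 probe it lay at −2.72, against −1.50 to −0.91, and by the second Fgfr4 probe at −2.75, against −1.93 to −1.37. The Fgfr4 probe used and the Fgfr1 probe with 0.16 went the other way, with WT 4 highest at 0.54 and 0.44. Fgfrl1, a receptor that lacks the kinase domain, had −0.06 ± 0.24. Fgfbp1, which releases FGFs from the extracellular matrix, had 0.19 ± 0.26.

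The feedback inhibitors had positive differences in all 4 tested members, and Spry2 gave the largest difference of any tested member. Its level was −0.86, −0.71, −1.07, −3.61 and −3.41 on KO 1 through KO 5, and −3.53, −3.53, −3.68 and −3.85 on WT 1 to WT 4. KO 1 to KO 3 were high, while KO 4 lay among the wild-type arrays and KO 5 just above them, so the groups overlapped. The difference was 1.72 ± 0.63 (SE), with a limma p of 0.0214, an adjusted p of 0.476 and an exact permutation p of 0.0714. The probe was well above background on all 5 knockout arrays and on 2 of the 4 wild-type arrays, so it passed the filter through the knockout. After normexp background correction the difference was 0.70 (adjusted p = 0.671), and neither with it nor without KO 3 was the unadjusted p below 0.05.

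The slides divided the Spry2 difference: it was 0.26 within slide 1 and 2.83 within slide 4. With slide as a block it was 1.28 (limma adjusted p = 0.733). Restricted to the arrays with Ddx3y and Uty signal, which leaves KO 1 and KO 3 against all 4 wild-type arrays, it was 2.69 (limma adjusted p = 0.0259) and passed the threshold. That restriction removes both knockout arrays with a low value. On the array 37 other probes hold a T and C run at least as long as the 24 bases of the Spry2 probe. KO 1 to KO 3 lay above the other 6 arrays in 0 of them, and in 0.873% of all probes. With so small a share over all probes, a count of 0 among 37 says little. Whether the probe read Spry2 RNA or RNA of other genes with such a run was not tested.

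Spred1 had levels of 0.51, 0.67, 0.68, 0.69 and 0.92 on KO 1 through KO 5, and 0.48, 0.50, 0.21 and 0.14 on WT 1 to WT 4. The groups did not overlap, but KO 1 and WT 2 lay side by side. The difference was 0.36 ± 0.15 (SE; 1.29-fold), with a limma p of 0.0325, an adjusted p of 0.514 and an exact permutation p of 0.0159. It was 0.63 within slide 1 and 0.19 within slide 4. The other 2 Spred1 probes gave 0.19 ± 0.23 and 0.00 ± 0.23, and the mean over the 3 probes was 0.19. The unadjusted p was below 0.05 in 11 of the 19 other settings. It was above 0.05 with the mean over probes, with no filter on dim probes, with the replicate number as a block, on the arrays with Y-linked signal, and without KO 3, KO 5, WT 3 or WT 4.

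Spry1 had 0.37 ± 0.29 and Spred2 0.45 ± 0.27 (limma adjusted p = 0.803 and 0.730). Spry1 was highest on KO 3, KO 4 and KO 5 (2.04, 1.98 and 2.28) and lay between 1.04 and 1.65 elsewhere. Spred2 lay between −0.35 and −0.29 on KO 3, KO 4, KO 5 and WT 4 and −0.90 or lower elsewhere. Spry4 was well above background on KO 3, KO 4 and KO 5 only. No wild-type array measured it. Each wild-type array was given the higher of its lowest signal well above background and the signal of the Spry4 probe itself. The knockout mean was then 1.02-fold higher. This is not a lower bound, since the knockout mean includes KO 1 and KO 2 (−5.15 and −6.25), which did not measure Spry4 either. The difference was 1.51 within slide 1 and −0.60 within slide 4. KO 3, KO 4 and KO 5 are the 3 arrays on which Fgf10 and the summed intestinal and enteric markers were high, and they had the highest 75th percentile of signal. The part of signal strength or tissue in the Spry1 and Spry4 values was not tested.

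**Figure D5:**
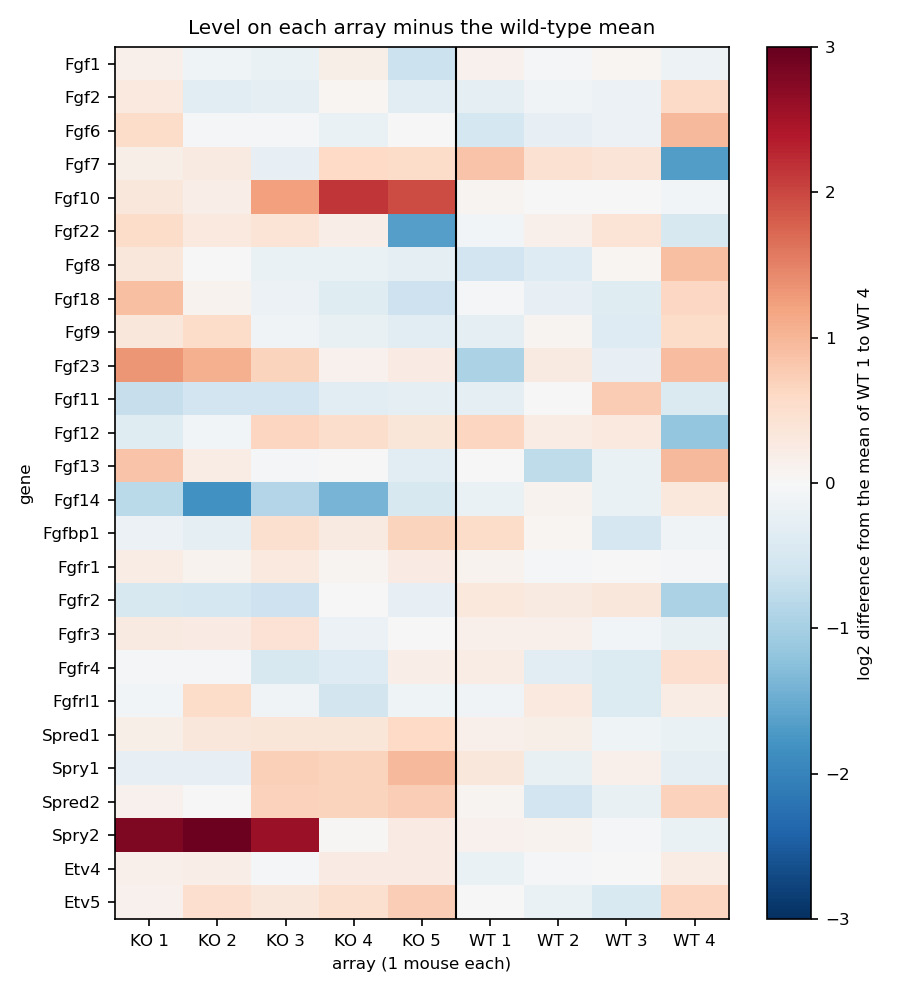
Level of each of the 26 tested FGF genes (rows) on each array (columns) minus the mean of the wild-type arrays, in log2 units (colour, red higher, blue lower). Fgf10 is red on KO 3 to KO 5, Spry2 on KO 1 to KO 3, Fgf14 blue on all knockout arrays, and WT 4 departs from the other wild-type arrays in several rows.

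The ETS transcription factors Etv4 and Etv5, which FGF signals induce, had differences of 0.15 ± 0.14 and 0.44 ± 0.23 (limma adjusted p = 0.838 and 0.642). Etv5 levels ran from 2.39 to 3.02 in the knockout and from 1.81 to 2.29 on WT 1 to WT 3, but WT 4 stood at 2.90. Without WT 4 the Etv5 difference was 0.65 (adjusted p = 0.141). The second Etv4 probe gave 0.46 ± 0.25.

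Other genes of the pathway were taken from 3 lists of 44 genes, of which 38 were tested. None passed the threshold and 1 had an unadjusted limma p below 0.05, which is 2.63%, against 8.73% of all genes. Of the 6 tested feedback and target genes 5 had a higher mean in the knockout, with a median difference of 0.37. They include Il17rd, which encodes an inhibitor of FGF receptor signalling, at 0.38 ± 0.16 (limma adjusted p = 0.545). The phosphatase genes Dusp4 and Dusp6, whose products act on ERK, lay at 0.94 ± 0.46 and 0.39 ± 0.20 (adjusted p = 0.618 and 0.634). Of 17 tested adaptors and kinases 12 had a higher mean, with a median of 0.07. Frs2 lay at 0.29 ± 0.16, the Ras activator Sos2 at 0.26 ± 0.14 and the kinase Map2k2 at −0.29 ± 0.19. Of 15 tested co-receptors and heparan sulfate enzymes 5 had a higher mean, with a median of −0.03. Hs6st1, a heparan sulfate sulfotransferase, lay at −0.44 ± 0.27, Glce, an epimerase of the same chains, at 0.20 ± 0.14, and the binding protein Fgfbp3 at 0.46 ± 0.40. Kl and Klb, co-receptors of the endocrine FGFs, failed the filter on dim probes.

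Promoter windows from RefSeq (GRCm38.p6; 250 bases before to 50 after each start) were found for 26 of the 35 members, in 34 windows. They are shown because the knocked-out protein binds DNA, and no binding was measured here. The C/EBP motif TTGCNNAA, searched on both strands, was held by 3 member windows (8.82%), against 10.8% of all 32851 windows. The matches, in capitals, lay on the strand opposite to the gene, 129 bases before the Fgf23 start (chr6:127072762-127072791), 236 before the Fgf3 start (chr7:144838365-144838394) and 236 before an Fgf13 start (chrX:59166306-59166335).
Fgf23 promoter: actgacgcgccTTCCGCAAgcctaagaagt
Fgf3 promoter: tcagaactgtgTTCGGCAAagaaacacgac
Fgf13 promoter: aaataataagtTTAAGCAAatagtatgggc
The windows of Fgf10, Fgf14, Spry2, Spred1 and Fgfr2 did not hold these letters. The ETS motif CCGGAA was held by 5 member windows (14.7%), against 14.9% of all windows. One of these was the Spry2 window (chr14:105896770-105896799), where the match began 33 bases after the start.
Spry2 start region: gaggtcatctatcCCGGAAtccgggagggt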

How the data were processed

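Scanner files of the 9 arrays were analysed. They give the intensity of each spot, not logged, made by the authors with Feature Extraction 10.5.1.1 per the file headers; the submitters' processing notes name Agilent Feature Extraction 9.1. Per the file headers, dim spots carry surrogate values and arrays were not normalized. The deposited flags (well above background, outlier, saturated) are values of other kinds set by the same program. The authors' series matrix holds deposited log2 values; apart from an offset of at most 0.029 per array, differences between its arrays followed log2 of the processed signal to within 2.03e-06, so its scale and direction are settled, but the value each probe was centred on is unknown. The column medians of KO 1 through KO 5 were 0.0436, 0.217, −0.124, 0.0347 and −0.137. Those of WT 1 through WT 4 were −0.279, −0.161, 0.224 and 0.381.

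Spots flagged as outliers and the 3671 control spots were left out, spots of a probe averaged on the log2 scale, and each array's 75th percentile subtracted. Probes well above background in at least 4 of 9 arrays were kept (30206), 1 per gene. The genotypes were compared in limma 3.58.1 (R 4.3.3; lmFit, eBayes, two-sided, Benjamini-Hochberg over all genes), and 5 single members also by an unadjusted exact permutation test. A probe compared with the other probes of its gene came from a fit on all kept probes. Errors are limma's standard errors. Arrays with Y-linked signal are those with Ddx3y and Uty well above background. Summed marker levels are log2 of the summed relative signal. All 35 symbols matched RefSeq names; coordinates are the design's, on mm9, and exons were not analysed here. The steps were tested on simulated data.

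Named in full were members at an unadjusted p below 0.05, Fgf10 and Fgfr2, and from each pathway list the 3 genes with the smallest p and Dusp6. Single values of further members, and the probes with repeats, were chosen after their values were seen. The members and lists were chosen with earlier results of these data known. Separate mice are named by the labels; litters are not.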

Additional observations from a re-analysis of the deposited data

Results flagged for a closer look

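In 3 of the 52 groups of arrays tested, 1 array lay far from the others of its genotype by Dixon's test, and chance alone sets apart about 1 group in 20. Fgf22 had a level of −3.14 on KO 5, while the other knockout arrays lay between −1.29 and −0.94. Fgf6 had a level of 0.91 on KO 1, against 0.15 to 0.35 on the other knockout arrays. Fgfr2 had a level of −0.84 on WT 4, against 0.38 to 0.46 on the other wild-type arrays.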

How the results depend on the processing

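Genes past the threshold over all genes numbered 44, and 22 with no filter on dim probes, 5 with slide as a block, 4 on the arrays with Y-linked signal and 535 with array weights. Leaving out 1 array gave between 11 (without WT 1) and 163 (without WT 4), with 28, 18 and 23 without KO 2, KO 3 and KO 4 and 17 without WT 2 or without WT 3. FGF members past the threshold stayed at 0 under every setting except on the arrays with Y-linked signal, where Spry2 made 1. The pathway genes past it stayed at 0 throughout. Members at an unadjusted p below 0.05 numbered 4 in the main analysis. When a probe had to be well above background on all 9 arrays, 1 of 20 had such a p, against 9.02% of all genes. With the mean over the probes of a gene they were 2 (8.53% of all genes), and with array weights 8 (24.1%). Leaving out 1 array gave 2 (without KO 3, 6.46% of all genes) to 8 (without WT 4, 16.2%). Members whose groups do not overlap numbered 3 in the main analysis. They were 1 with normexp (3.1% of all genes), with detection on all 9 arrays (3.41%) and with the mean over probes (3.35%). On the arrays with Y-linked signal, with 2 knockout arrays, they were 8 (11% of all genes). Leaving out 1 array gave 3 to 5, with 5 without KO 4 (5.58% of all genes) or without WT 4 (12.3%). The median difference of members, 0.15, was 0.037 with normexp, 0.036 with no filter, 0.059 with the mean over probes, 0.062 with slide as a block, and 0.054 (without KO 1) to 0.17 (without WT 4) with 1 array left out. The cause of these shifts was not tested, beyond the smaller number of genes or arrays that a setting leaves. With the replicate number as a block 4 genes passed over all genes and 0 members. Deviations of same-numbered mice correlated at −0.31, 0.12, 0.15 and −0.48, so the numbers do not pair the samples. Fgf10, Spry2, Spred1, Fgf14 and Fgfr2 kept the sign of their difference under every setting that gave a value. Dim members such as Fgf10, Fgf14 and Spry2 are limited by signal over background: they have no value when detection on all 9 arrays is required.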
